A study of Drosophila melanogaster with 4 samples.

Results

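The cells described here are those of *scrib* mutant wing disc tumors with the highest and the lowest RNA level of 6 genes of S phase, the stage of the cell cycle in which DNA is copied. Each cell was scored by the mean deposited value of *RnrS*, *PCNA*, *CycE*, *dnk*, *Claspin* and *dup*. In each library the 20% of cells with the highest score (score-high cells) were set against the 20% with the lowest (score-low cells). This gave 2891 score-high and 2891 score-low cells of 14456 cells in all. Each class held 757, 1291, 621 and 222 cells at days 4, 5, 8 and 14.

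The wing imaginal disc is the larval epithelial sac that forms the adult wing, and *scrib* encodes a protein that keeps the apicobasal polarity of its cells. All larvae were homozygous for the *scrib1* allele on an *FRT82B* chromosome, came from a parental strain that carries the *TM6B* balancer and were raised at 25 degrees. Discs taken at 4, 5, 8 and 14 days after egg laying (AEL) were dissociated in trypsin, and each age gave 1 library made with the 10x method from an unstated number of discs. No control disc was analysed here, and with 1 library per age there is no replicate, so age and preparation cannot be told apart.

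Entry into S phase is driven in flies, as in other animals, by the transcription factor E2F, which is held back by the retinoblastoma protein Rbf and released when cyclin-dependent kinases phosphorylate Rbf. E2F then turns on genes for origin licensing, the replication fork and the supply of deoxynucleotides, so the RNA of these genes peaks at the G1/S transition. Cells that have stopped cycling hold little of it. The score genes cover each of these steps. *RnrS* is the small subunit of ribonucleotide reductase and *dnk* is the deoxyribonucleoside kinase, and both supply deoxynucleotides. *PCNA* is the clamp that holds the polymerase on DNA. *CycE* partners Cdk2 to start S phase. *Claspin* works at the fork and in the checkpoint, and *dup* is the fly Cdt1, which loads the Mcm helicase.

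The libraries held 22458962 to 134888985 unique molecular identifiers (UMIs, 1 for each captured RNA molecule), and the median cell had 18298.5 to 23326 UMIs. Between 5 and 34 cell barcodes were shared by a pair of libraries, at most 1.08% of the smaller library. Of 9074 genes listed in any library, 7845 were listed in all 4. Besides the score genes, 3293 of these had a mean of at least 0.2 UMIs per 10000 in each library, the level required below. Among the score genes *CycE* did not reach it on days 4 and 5. All levels below are means over cells of UMIs per 10000 UMIs of the cell. Differences are log2 ratios of these levels, score-high over score-low. Because the score came from the RNA of the same cells, every ratio is a description of cells chosen by that RNA, and no test was made. Counting half-widths, given after ±, are at a level of 95% and cover counting error only.

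The score was a continuous range with no empty gap, so the classes are its ends and not 2 separate kinds of cell. The lowest score-high cell of days 4, 5, 8 and 14 scored 0.7061, 0.7150, 0.7435 and 0.7163. The next cell below scored 0.7060, 0.7149, 0.7434 and 0.7158 in the same order. The highest score-low cell scored 0.1380, 0.1384, 0.1328 and 0.1421, and the next cell above scored 0.1386, 0.1384, 0.1335 and 0.1428. Between 6.22% and 7.30% of the cells of a library lay within 0.05 of the upper limit, and 14.4% to 16.8% lay within 0.05 of the lower. A score of 0, with no UMI of any of the 6 genes, was found in 206, 339, 177 and 52 cells on days 4, 5, 8 and 14.

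**Figure D1:**
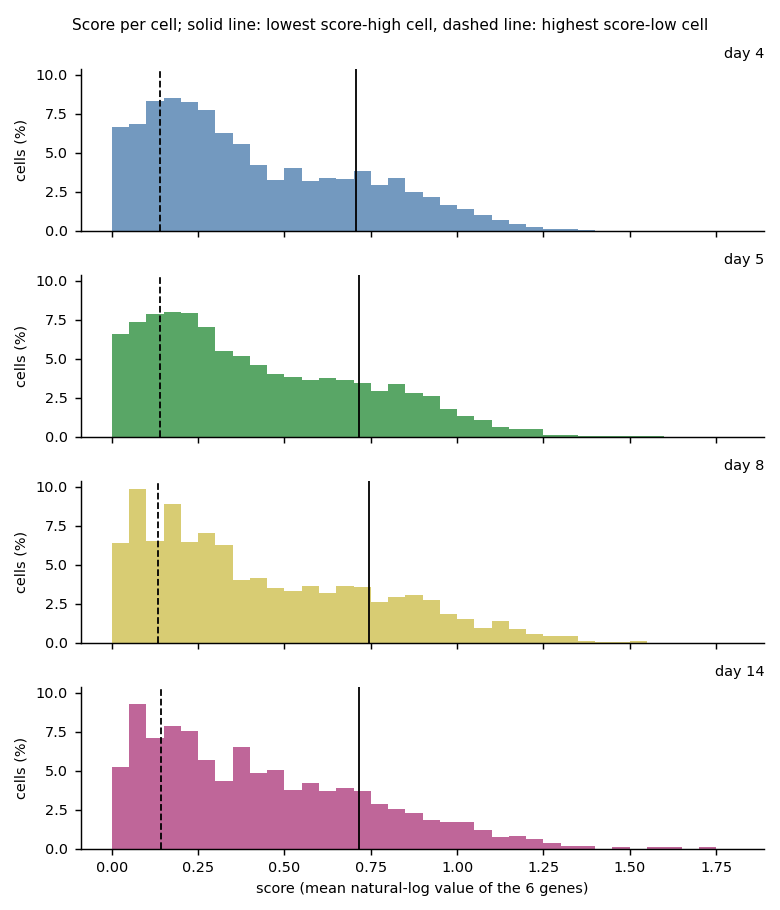
Distribution of the score in each library, with the score (mean natural-log value of the 6 genes) on the horizontal axis and the percent of cells in bins of 0.05 on the vertical axis. Solid lines mark the lowest score-high cell and dashed lines the highest score-low cell; the limits of the 4 libraries lie between 0.7061 and 0.7435 and between 0.1328 and 0.1421.

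The classes were near in depth on 3 of the 4 days. Median UMIs per cell were 20800 in score-high and 21635 in score-low cells on day 4, and 16853 against 20232 on day 5. They were 16691 against 17823 on day 8, and 19272.5 against 18962 on day 14. Ribosomal protein genes took 50.1%, 49.1%, 48.4% and 41.1% of the UMIs of score-high cells on days 4, 5, 8 and 14, against 48.9%, 46.8%, 46.2% and 39.7% of those of score-low cells. With classes taken within each decile of the cells by UMIs, the 150 higher and 146 lower genes reported below were 154 and 146.

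The 6 score genes were each measured between classes that the other 5 chose. The 6 were fixed as 1 set of genes that vary together, so these values describe the set and are not separate support for the label. *PCNA*, the most abundant, had 6.95, 7.08, 7.23 and 6.08 UMIs per 10000 in the score-high cells of days 4, 5, 8 and 14, against 0.895, 1.07, 0.848 and 0.798 in the score-low cells. The log2 ratio of *PCNA* was 2.93 on the mean over the libraries and lay between 2.72 and 3.09. *RnrS* had a mean log2 ratio of 2.95 and *CycE* of 3.08. The other 3 were further apart between the classes, with means of 3.72 for *dnk*, 3.83 for *Claspin* and 4.15 for *dup*. No library gave a ratio under 2.58 for any of the 6, the lowest being that of *CycE* on day 14. Across the cells of a library all 15 pairs of score genes were positively correlated, with mean Pearson's r of 0.254 for *CycE* and *dup* up to 0.627 for *PCNA* and *dnk*. These are descriptions over cells that share library and depth.

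With the whole score, the genes that chose the cells were by construction far apart. *PCNA* stood at 7.57, 7.77, 7.89 and 6.61 UMIs per 10000 in score-high cells, against 0.364, 0.336, 0.311 and 0.334 in score-low cells on days 4, 5, 8 and 14. *CycE* had 0.564, 0.502, 0.645 and 0.802 in score-high cells and 0.0239, 0.0216, 0.0179 and 0.0397 in score-low cells. The level of *CycE* in score-high cells was highest on day 14, and that of *PCNA* was lowest on that day.

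Across all other genes, 150 of the 3293 with a sufficient level were at least 1.5-fold higher in score-high cells in all 4 libraries, which is 4.56%. A further 146, or 4.43%, were at least 1.5-fold lower in all 4. Within single libraries 282, 342, 308 and 249 genes were higher and 341, 364, 308 and 191 were lower on days 4, 5, 8 and 14. The median gene had a log2 ratio of 0.06 to 0.09. Counts below of genes above or below 0 in every library have no share over all genes beside them, since that share was not counted. The 4.56% and 4.43% are for the 1.5-fold limit alone. Day 14 had the fewest lower genes, and without it 240 genes were at least 1.5-fold lower in the other 3 libraries.

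The 12 genes that led the higher side were 5 of the 6 helicase subunits, *Ts*, *RnrL*, *WRNexo*, *HipHop* and 3 genes known by number. *Ts*, thymidylate synthase, which makes the nucleotide found only in DNA, had 1.96, 1.88, 2.04 and 1.75 UMIs per 10000 in score-high cells on days 4, 5, 8 and 14, against 0.152, 0.122, 0.105 and 0.132 in score-low cells. Its log2 ratio was between 3.69 and 4.28. The ranges of the classes over the 4 libraries did not overlap, but *Ts* was chosen for its large ratio in every library. *RnrL*, the large subunit of ribonucleotide reductase, had 0.865, 0.851, 1.01 and 1.08 in score-high cells and 0.122, 0.117, 0.128 and 0.203 in score-low cells. Its partner *RnrS* was in the score, and *RnrL* followed it with a mean log2 ratio of 2.77. *WRNexo*, the fly counterpart of the nuclease part of the Werner syndrome protein, had a mean log2 ratio of 3.70, and *HipHop*, a telomere capping protein, one of 2.51. *CG10336*, *CG11164* and *CG9752* were at 3.14, 3.08 and 2.78.

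Of these genes, *Ts* lies on chromosome 2L at 2968293 to 2969638 in the Ensembl annotation of BDGP6, release 115, and overlaps *Rbp9* on the other strand. *WRNexo*, on 3R at 18364244 to 18366162, overlaps *hmw*, and *CG10336* overlaps *CG10383*. *Mcm3* overlaps *CG3309*, *Mcm7* a noncoding RNA, *CG9752* overlaps *RpL29*, and the score genes *CycE*, *dnk* and *dup* overlap noncoding RNAs, *Smu1* and *SRPK* in the same manner. The sources used here give neither the strand setting nor the build of the counting, so reads of such a pair cannot be told apart.

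Origin licensing prepares each stretch of DNA for 1 round of copying, and the Mcm2 to Mcm7 helicase is its product. All 6 helicase subunits were higher in score-high cells in all 4 libraries. *Mcm5* had 0.801, 0.734, 0.844 and 1.03 UMIs per 10000 in score-high cells on days 4, 5, 8 and 14, against 0.106, 0.0916, 0.116 and 0.152 in score-low cells, a mean log2 ratio of 2.88. *Mcm3* averaged 2.91, *Mcm7* 2.84, *dpa*, the fly Mcm4, 2.76, *Mcm2* 2.60 and *Mcm6* 2.35. The subunits thus lay within a log2 unit of each other. *CDC45L*, which joins the helicase when it starts, had a mean log2 ratio of 2.16, and its partners of the GINS complex were less even, with 1.81 to 2.33 for *Sld5*, 1.31 to 1.85 for *Psf1*, 0.83 to 1.08 for *Psf3* and 0.39 to 0.75 for *Psf2*. Of the 20 listed licensing and helicase genes, 13 reached the mean level. Of these, 12 were higher, compared with 4.56% of all genes, and *Psf2* reached 1.5-fold only on day 14. Among the 7 under that level, *Orc1*, a subunit of the origin recognition complex, had 0.128, 0.108, 0.162 and 0.296 in score-high cells, against 0.0185, 0.0198, 0.0188 and 0.0243 in score-low cells. Of the 20, only *chif*, the fly counterpart of the Cdc7 activator Dbf4, had ratios on both sides of 0.

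*geminin*, which binds Cdt1 and blocks a repeat of licensing, was also higher in score-high cells, at 1.41, 1.46, 1.58 and 1.43 UMIs per 10000, against 0.670, 0.720, 0.766 and 0.750 in score-low cells. Its log2 ratio was between 0.93 and 1.07. *Cdc6*, which loads the helicase together with Cdt1, had a mean log2 ratio of 1.77.

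At the replication fork, all 9 listed genes with a sufficient level were higher in score-high cells in all 4 libraries. The share over all genes was 4.56%. The 8 listed fork genes under the level required were above 0 in every library. The single-strand binding protein RPA has 3 subunits. *RPA2* had 2.46, 2.63, 2.88 and 2.91 UMIs per 10000 in score-high cells and 0.520, 0.568, 0.546 and 0.696 in score-low cells on days 4, 5, 8 and 14. *RpA-70* and *RPA3* had mean log2 ratios of 1.94 and 1.66. The clamp loader genes *Gnf1*, *RfC3*, *RfC4* and *RfC38*, which place PCNA on DNA, lay between 1.11 and 1.97 over all libraries. *DNA-ligI* and *Fen1*, which finish the lagging strand, had means of 2.08 and 1.53. The primase and polymerase alpha genes had too few UMIs to pass, yet *DNApol-alpha60*, a primase subunit, had 0.385, 0.354, 0.406 and 0.423 in score-high cells, against 0.0349, 0.0324, 0.0305 and 0.0203 in score-low cells.

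Over licensing, fork and the deoxynucleotide genes *RnrL*, *Ts* and *dUTPase* together, the median log2 ratio was 1.81, 1.88, 1.87 and 2.06 on days 4, 5, 8 and 14, against a median of 0.06 to 0.09 for all genes. Of the 40 such genes listed, 39 had ratios above 0 in every library, for which the share over all genes was not counted. None of them was in the score. The label of S-phase cells thus went with RNA of the wider replication machinery in each library, but RNA alone does not show that a given cell was copying its DNA.

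**Figure D2:**
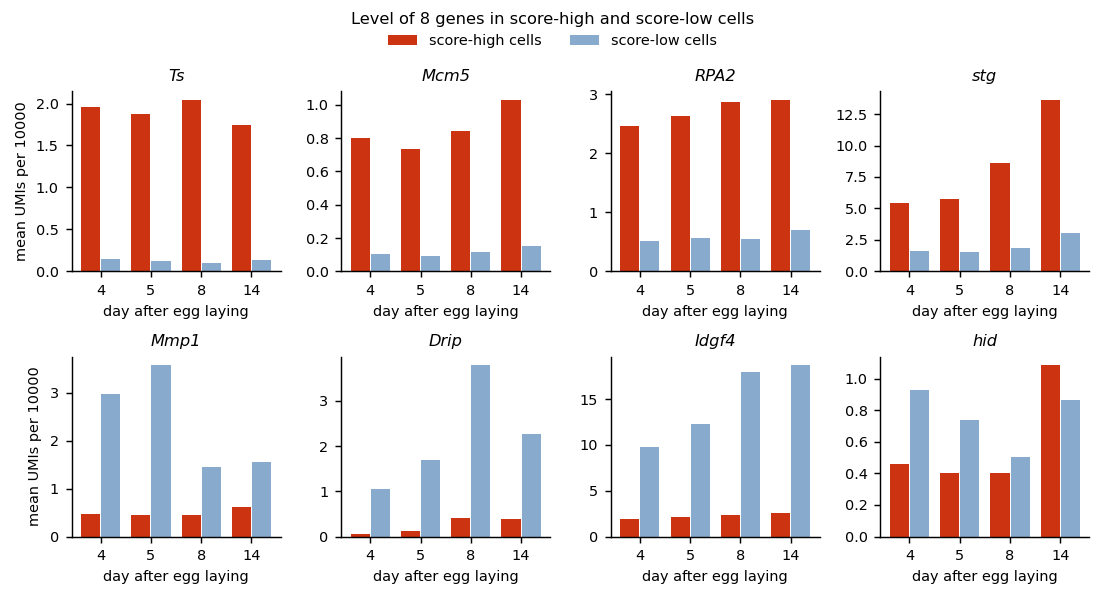
Level of 8 genes (mean UMIs per 10000, vertical axes starting at 0) in score-high cells (red, left bar) and score-low cells (blue, right bar) on days 4, 5, 8 and 14. *Ts*, *Mcm5*, *RPA2* and *stg* were higher in score-high cells in every library, *Mmp1*, *Drip* and *Idgf4* were lower, and *hid* had 0.461 against 0.929 on day 4 and 1.08 against 0.865 on day 14; bars have no error since each age had 1 library.

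Purine and pyrimidine genes of general use were less far apart than those for deoxynucleotides. *ade5* and *CTPsyn* were higher with mean log2 ratios of 0.75 and 0.78, and *dUTPase*, which keeps uracil out of DNA, had 1.37. *awd*, the nucleoside diphosphate kinase, was at 61.3 UMIs per 10000 in score-high and 48.2 in score-low cells on day 4, and its ratio of 0.33 to 0.47 did not reach 1.5-fold in any library.

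Chromatin assembly on new DNA needs histone chaperones. *Caf1-180*, the large subunit of chromatin assembly factor 1, had 0.875, 0.959, 1.27 and 1.58 UMIs per 10000 in score-high cells on days 4, 5, 8 and 14, against 0.184, 0.183, 0.246 and 0.291 in score-low cells. *asf1*, which hands it histones, had a mean log2 ratio of 1.80, *Caf1-55* one of 1.11 and the histone variant *His2Av* one of 0.87. Of the other listed histone genes, *His3.3A* was between 0.23 and 0.38, and *His3.3B* and *His4r* were between -0.05 and 0.15 in all libraries. Of 10 listed genes with a sufficient level 5 were higher in all 4 libraries and none was lower, compared with 4.56% and 4.43% of all genes. The condensin genes *glu* and *SMC2* were the 2 of 7 cohesion and condensin genes that were higher, with mean log2 ratios of 1.31 and 1.09.

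Among regulators of the G1/S transition, 5 of 10 were higher in score-high cells in all 4 libraries and none was lower. The shares over all genes were 4.56% higher and 4.43% lower. *Cdk2*, the kinase of Cyclin E, had 0.547, 0.485, 0.491 and 0.606 UMIs per 10000 in score-high cells and 0.176, 0.153, 0.168 and 0.221 in score-low cells. *Skp2*, which targets proteins for breakdown at S phase, was as far apart with a mean log2 ratio of 1.66. *dap*, the inhibitor of Cyclin E and Cdk2, was higher too, at 0.663, 0.718, 0.951 and 1.22 in score-high cells, against 0.336, 0.310, 0.443 and 0.503 in score-low cells. The activating kinase and its inhibitor were thus higher in the same class. *Dp*, the partner of E2F, and *Rbf*, its inhibitor, had mean log2 ratios of 1.04 and 0.97. *E2f1* itself was closer between the classes, with a mean log2 ratio of 0.29, at 0.752, 0.766, 1.15 and 2.01 in score-high and 0.589, 0.626, 0.955 and 1.71 in score-low cells, while both values were highest on day 14. *CycD* and *Cdk4*, which act earlier in G1, did not exceed a log2 ratio of 0.37 in any library, and *Myc* averaged 0.32.

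The genes of G2 and mitosis were less far apart. The median log2 ratio of the 19 listed genes with a sufficient level was 0.63, 0.68, 0.46 and 0.80 on days 4, 5, 8 and 14. Of the 19, 5 were at least 1.5-fold higher in all 4 libraries, compared with 4.56% of all genes. The other 14 were neither higher nor lower. Most apart among these was *stg*, the Cdc25 phosphatase that activates Cdk1 for mitosis. *stg* had 5.44, 5.77, 8.62 and 13.6 UMIs per 10000 in score-high cells and 1.59, 1.51, 1.86 and 3.04 in score-low cells. Its mean log2 ratio was 2.02, and its level in score-high cells was higher on days 8 and 14 than on days 4 and 5. *cid*, the histone of the centromere, was under the level required and had a mean of 2.26. Of the 27 listed, *trbl* and *Myt1*, both inhibitors of entry into mitosis and under that level, were the ones below 0 in every library. *trbl* had ratios of -0.88, -0.68, -0.86 and -0.07 and *Myt1* of -0.69, -0.63, -0.13 and -0.40. *aurB* and *borr*, of the chromosomal passenger complex, had mean log2 ratios of 1.00 and 0.93, *fzy*, the Cdc20 activator of anaphase, 1.03 and *Cdk1* 0.74. *CycA* and *CycB* had means of 0.71 and 0.57 and did not reach 1.5-fold in all 4 libraries. Against all other cells in place of the score-low cells, the mean of the 4 medians for the G2/M list was 0.18, compared with 0.64 in the contrast of the ends and with 1.10 for the replication list.

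Quintiles of the cells by score show where these differences lay. The summed level of the replication genes was higher in each successive quintile, with 11.4, 16.9, 22.0, 29.5 and 37.8 UMIs per 10000 from the lowest to the highest quintile on day 4 and 11.3, 15.8, 21.0, 28.0 and 40.2 on day 14. The G2/M genes summed to 14.4, 19.8, 22.3, 23.3 and 25.3 on day 4 and to 16.0, 22.9, 25.8, 29.6 and 35.1 on day 14, so the largest of their 4 steps was that between the lowest quintile and the next on both days. *stg*, which is in this sum and its most abundant gene, was higher in each quintile than in the one below. It had 1.59, 2.51, 3.17, 4.18 and 5.44 on day 4 and 3.04, 5.42, 7.62, 10.6 and 13.6 on day 14. A large part of the rise of the sum was thus that of *stg*, and the sum without *stg* was not computed. *CycB* instead was highest in the middle quintile in every library, with 0.444, 0.623, 0.707, 0.688 and 0.630 on day 4.

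**Figure D3:**
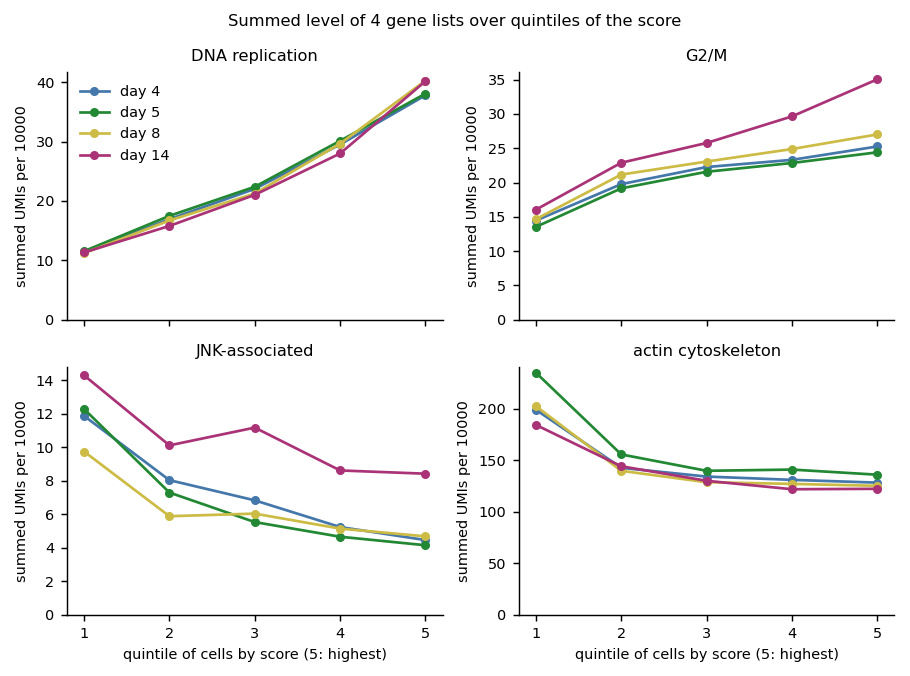
Summed level (UMIs per 10000, axes starting at 0) of 4 gene lists in quintiles of the cells by score, from the lowest (1) to the highest (5), with 1 line per library. The replication genes were higher in each successive quintile, the largest step of the G2/M genes was that between the lowest quintile and the next, and the JNK-associated and actin genes were highest in the lowest quintile in all 4 libraries. The G2/M sum includes the abundant *stg*, which made up a large part of its rise.

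The 12 genes that led the lower side were of mixed kinds. *CG13117* had 0.229, 0.306, 0.346 and 0.553 UMIs per 10000 in score-high cells, against 3.59, 4.52, 3.60 and 4.27 in score-low cells on days 4, 5, 8 and 14. *Drip*, an aquaporin water channel, had 0.0604, 0.121, 0.406 and 0.388 in score-high cells and 1.05, 1.69, 3.79 and 2.26 in score-low cells. Both were far apart in every library, with mean log2 ratios of -3.55 and -3.42. *Idgf4*, a secreted chitinase-like growth factor, had 1.89, 2.16, 2.39 and 2.52 in score-high cells, against 9.77, 12.2, 18.0 and 18.7 in score-low cells. *Pvf1*, a ligand of the PDGF and VEGF receptor family, had 0.113, 0.117, 0.135 and 0.133 in score-high cells and 0.927, 1.06, 0.705 and 0.597 in score-low cells. The classes of these 4 genes did not overlap over the libraries. The genes were chosen for a large ratio in every library, so this is not separate evidence. The serine protease homologue *scaf*, the virus-induced gene *vir-1*, the lipid phosphate phosphatase *wun2* and the serpins *Spn47C* and *Spn55B* had mean log2 ratios between -2.90 and -1.99. *CG8066* was at -3.02, *CG12911* at -4.49 and the noncoding RNA *CR45018*, which overlaps *IP3K2*, at -2.46. *CG13117* and *Drip* overlap *Nckx30C* and *CG7763* on the other strand.

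These genes were not spread alike over the score-low cells. *CG12911* had a UMI in only 6.61%, 8.83%, 11.4% and 6.31% of score-low cells on days 4, 5, 8 and 14, against 2.91%, 3.87%, 5.15% and 3.60% of score-high cells, so its mean rests on few cells. *Drip* was found in 24.2%, 34.0%, 43.0% and 28.8% of score-low cells, and the decile of score-low cells with most of it held 75.1%, 62.3%, 46.0% and 70.4% of its level. *CG13117* was found more widely, in 52.2%, 55.3%, 52.0% and 56.8% of score-low cells, against 20.9%, 19.8%, 13.7% and 19.4% of score-high cells. On the higher side, *Ts* was found in 95.2%, 93.8%, 96.1% and 90.5% of score-high cells and in 20.1%, 16.8%, 15.9% and 19.4% of score-low cells. Other leading genes lay between these ends. *Mcm2* was found in 66.1%, 59.5%, 68.3% and 75.2% of score-high cells, against 19.6%, 16.0%, 16.9% and 22.5% of score-low cells. *Idgf4* was found in 82.4%, 76.3%, 68.4% and 61.3% of score-high cells and in 88.1%, 88.2%, 84.5% and 77.9% of score-low cells, so both classes held it widely at different levels. The share of these levels that free RNA would give was not measured.

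Within the score-low cells some of the lower genes varied together. Over those cells Pearson's r averaged 0.798 for *CG13117* and *Spn55B*, 0.784 for *CG13117* and *CG8066* and 0.753 for *Mmp1* and *vir-1*. It averaged 0.115 for *Mmp1* and *CG12911* and 0.270 for *Mmp1* and *Drip*. These are descriptions within 1 library at a time over cells that differ in depth, and the 13 genes compared were chosen for their level in these cells.

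JNK is a stress kinase that is active in *scrib* mutant discs, and its targets are read from RNA. The list used here includes genes that the study singled out in these same libraries, so their direction is not independent evidence. Of 9 JNK-associated genes with a sufficient level, 6 were at least 1.5-fold lower in score-high cells in all 4 libraries. The share over all genes was 4.43%. Of the 14 listed, 9 were below 0 and none was above 0 in every library, without a share over all genes to set beside it. *upd1*, under the level required, had ratios of -0.45, -0.67, 1.34 and 0.73 on days 4, 5, 8 and 14. Those of *upd3*, also under it, were -1.37, -1.58, -0.32 and 0.13. *Mmp1*, a matrix metalloprotease, had 0.466, 0.458, 0.456 and 0.613 UMIs per 10000 in score-high cells, against 2.96, 3.58, 1.46 and 1.56 in score-low cells. *puc*, the phosphatase that JNK induces against itself, had 0.199, 0.173, 0.222 and 0.458 in score-high cells and 0.811, 0.805, 0.555 and 0.833 in score-low cells. Both were closer between the classes on days 8 and 14 than on days 4 and 5, with log2 ratios of -1.35 ± 0.20 and -0.86 ± 0.24 on day 14. *Jra* and *kay*, the fly Jun and Fos, had mean log2 ratios of -1.12 and -1.04. *bsk*, the kinase itself, and *hep*, the kinase above it, lay between -0.22 and 0.21.

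*Ilp8*, a secreted relaxin-like peptide that delays metamorphosis, had 0.398, 0.271, 0.703 and 2.49 in score-high cells and 0.919, 0.553, 1.32 and 4.80 in score-low cells. Fewer score-low than score-high cells held it, with 19.7%, 12.9%, 11.3% and 24.8% of score-low cells having a UMI, against 21.8%, 13.2%, 21.4% and 34.2% of score-high cells. The decile of score-low cells with most of it held 95.6%, 98.4%, 99.7% and 96.1% of its level.

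Cells with much *Mmp1*, at 5 or more UMIs per 10000, made up 0.925%, 0.852%, 1.29% and 0.901% of score-high cells on days 4, 5, 8 and 14, against 20.3%, 25.8%, 8.37% and 9.01% of score-low cells. Because they gather in 1 class, each summary was computed again without them, a step added after the values were seen. Then 103 genes were higher and 99 lower in all 4 libraries. The mean of the 4 medians was 1.77 for the replication genes, compared with 1.90 with all cells, 0.43 compared with 0.64 for the G2/M genes, and -0.81 compared with -1.16 for the JNK-associated genes.

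Actin genes went with the JNK-associated genes. The paper reports from its single-cell data that cytoskeletal genes, *cindr* among them, correlate with *Mmp1*, so this direction is not independent evidence. Of 16 with a sufficient level 8 were at least 1.5-fold lower in score-high cells in all 4 libraries and none was higher. The shares over all genes were 4.43% lower and 4.56% higher. All 18 listed had ratios under 0 in each library, for which the share over all genes was not counted. *cindr*, an adaptor of the actin cortex, had 1.16, 1.09, 1.22 and 2.71 UMIs per 10000 in score-high cells, against 3.26, 3.20, 3.38 and 5.45 in score-low cells. *zip* and *sqh*, the heavy and the light chain of non-muscle myosin, had mean log2 ratios of -1.16 and -0.84, *Vinc*, the fly vinculin, -1.23 and *Arpc1* and *Arp3*, of the actin-nucleating Arp2/3 complex, -1.12 and -0.86. *Act5C*, the main actin of the cytoplasm, was at 55.6, 59.8, 52.2 and 48.7 in score-high and 84.0, 99.8, 83.6 and 73.1 in score-low cells. The list median was -0.74, -0.94, -0.85 and -0.60.

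Of 17 ribosome synthesis genes 1, *Surf6*, was at least 1.5-fold higher in score-high cells in all 4 libraries and 16 were not, a share near the 4.56% of all genes. The list median was 0.58, 0.66, 0.71 and 0.41. *Nop56*, a core protein of small nucleolar particles, had 4.28, 4.47, 3.93 and 3.53 UMIs per 10000 in score-high cells and 2.67, 2.77, 2.28 and 2.55 in score-low cells. The ribosomal proteins themselves had medians of 0.03 to 0.07 over 83 genes and the respiratory chain 0.14 to 0.21 over 58 genes, with no member of either past 1.5-fold in all 4 libraries.

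**Figure D4:**
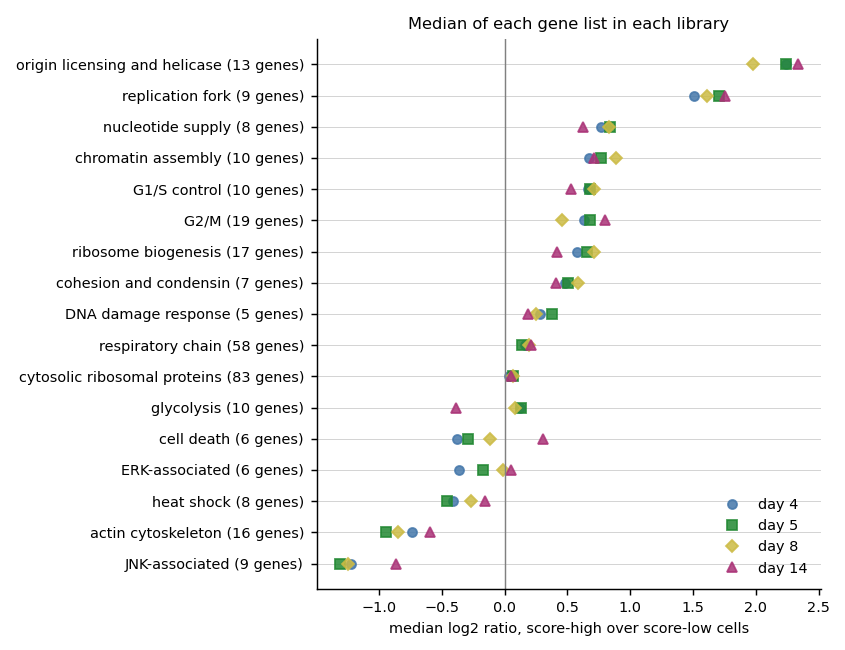
Median log2 ratio, score-high over score-low cells, of each gene list with at least 5 genes of sufficient level (horizontal axis), with 1 point per library. The licensing and fork lists lie between 1.51 and 2.34, the JNK-associated list between -1.31 and -0.86, and the cell death, ERK-associated and glycolysis lists have day 14 on the other side of 0 from day 4.

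Markers of other cells were examined for both classes. Cells with at least 3 of 7 myoblast markers made up 2.64%, 5.19%, 7.57% and 3.15% of score-high cells on days 4, 5, 8 and 14, against 3.57%, 5.50%, 5.31% and 4.05% of score-low cells. The exact binomial intervals of the classes overlapped in each library. The 7 markers together summed to 0.30, 0.50, 0.66 and 0.53 UMIs per 10000 in score-high and 0.35, 0.46, 0.52 and 0.48 in score-low cells. Each of the 7 had UMIs in both classes of every library. Of the hemocyte markers only *crq* was listed in all 4 libraries, at 0.14 or less in score-high and 0.20 or less in score-low cells. The tracheal markers *trh* and *btl* were at 0.07 or less, with *trh* at 0 in score-low and *btl* at 0 in score-high cells of day 4. *vvl* and *kni*, also on that list and used in wing veins too, reached 4.24 and 0.333 in score-high and 2.86 and 0.368 in score-low cells. The neuronal *elav* was at 0.24 or less and *nSyb* at 0.006 or less in both classes. The epithelial genes *Fas3*, *grh*, *shg* and *crb* were each detected in both classes in every library, with list medians of -0.15 to 0.10. The part of these cells in the results was not tested, other than that leaving out the myoblast-marked cells gave 165 higher and 157 lower genes.

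Age was compared through the ratios of the 4 libraries. For the replication list they hardly differed, with a SD of 0.11 over the 4 medians of mean 1.90. The 5 genes whose log2 ratio rose most, in order over the 4 days, were *Arc1*, *CG4115*, *CG17672*, *Drip* and *hid*. *Arc1*, which forms capsids that carry RNA in neurons, had 0.0619, 0.176, 0.216 and 0.640 UMIs per 10000 in score-high cells and 0.893, 1.32, 0.992 and 1.34 in score-low cells. Its ratio was thus -3.85 ± 0.27 on day 4 and -1.06 ± 0.20 on day 14, and its level differed more between the ages in score-high than in score-low cells. The decile of score-low cells with most *Arc1* held 94.0%, 90.6%, 93.0% and 79.7% of it.

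*hid*, which triggers cell death by binding the caspase inhibitor Diap1, had 0.461, 0.400, 0.401 and 1.08 UMIs per 10000 in score-high cells and 0.929, 0.741, 0.501 and 0.865 in score-low cells. It was lower in score-high cells by a log2 ratio of -1.01 ± 0.13 on day 4 and higher by 0.33 ± 0.19 on day 14. *rpr*, which acts in the same way, moved in the same order, at 0.765, 0.732, 0.773 and 1.53 in score-high and 0.915, 0.778, 0.727 and 1.19 in score-low cells. *Diap1* itself had ratios of -0.17, 0.00, 0.25 and 0.29. The cell death list of 6 genes had medians of -0.38, -0.29, -0.12 and 0.31. *Drice* and *grnd* were below 0 in all 4 libraries, at -0.50 and -0.71 on day 4 and -0.57 and -0.07 on day 14. *Dcp-1* was above 0 in all 4, at 0.29 on day 4 and 0.33 on day 14. None of the 6 was at least 1.5-fold higher or lower in all 4 libraries.

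The ratio fell most, in order, for *Jupiter*, *Got2*, *mamo*, *CG9338* and *CG8460*. *Jupiter*, a microtubule-associated protein, had 2.60, 2.83, 3.33 and 3.69 in score-high cells, against 2.81, 3.79, 5.33 and 9.77 in score-low cells. The score-low cells of day 14 stood above those of each other day. *mamo*, a zinc finger protein, had 1.84, 1.61, 0.945 and 0.543 in score-high cells and 2.14, 2.02, 1.60 and 1.13 in score-low cells, so the older libraries held less of it in both classes. *Got2*, an aspartate aminotransferase, had a log2 ratio of 0.44 ± 0.10 on day 4 and -0.42 ± 0.17 on day 14. *CG9338* was lower in score-high cells in all 4 libraries, with ratios of -0.76, -0.86, -1.46 and -1.59.

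**Figure D5:**
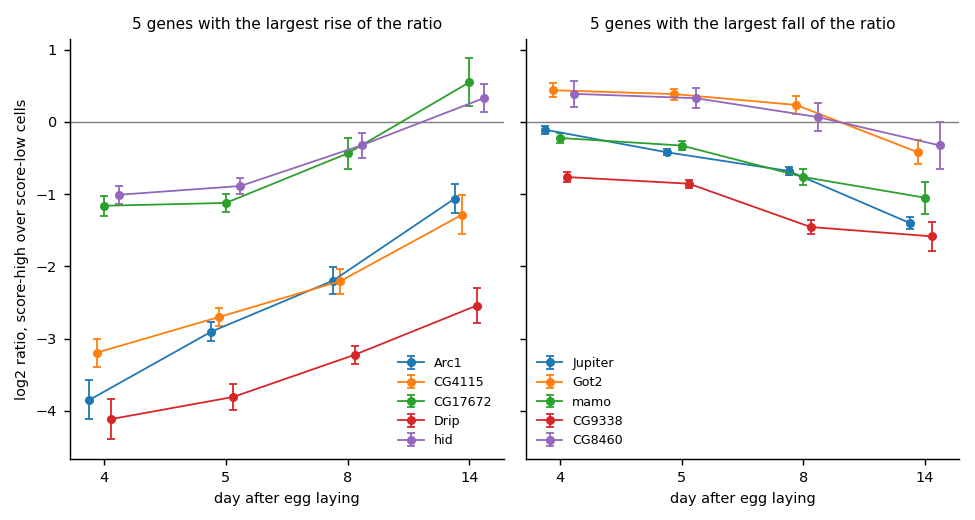
Log2 ratio of score-high over score-low cells by day for the 5 genes whose ratio rose most with age (left) and the 5 whose ratio fell most (right), with bars for the 95% counting half-width. The ratio of *hid* was -1.01 on day 4 and 0.33 on day 14, and that of *Jupiter* -0.11 and -1.40; each day is 1 library.

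The median ratio of 10 glycolysis genes was 0.12, 0.13, 0.09 and -0.39 on days 4, 5, 8 and 14. Of the 10, 6 were above 0 on day 4 and below 0 on day 14 beyond the counting half-width, whereas *Tpi* was below 0 and *PyK* above 0 in all 4 libraries. The share of all genes with such a change of sign was not counted. None of the 10 was at least 1.5-fold higher or lower in all 4 libraries. Against all other cells the difference of the medians, day 14 minus day 4, was -0.13, compared with -0.51 between the ends of the score. *Eno*, enolase, had 2.53, 3.01, 3.80 and 4.81 UMIs per 10000 in score-high cells and 2.14, 2.62, 3.22 and 6.82 in score-low cells. *Ald*, aldolase, had 1.90, 2.48, 3.69 and 5.89 in score-high cells, against 1.77, 2.21, 3.35 and 8.12 in score-low cells. Both classes were at their highest on day 14, and on that day the score-low cells stood above the score-high cells. *ImpL3*, lactate dehydrogenase, was under the level required and stood lower in score-high cells on each of the 4 days, with 0.0167, 0.122, 1.34 and 6.51 in score-high cells, against 0.127, 0.211, 2.05 and 18.3 in score-low cells. Summed over all 12 listed genes, *ImpL3* among them, the level was 64.9 in the lowest quintile of day 14 and 40.7, 45.8, 32.7 and 41.1 in the next 4. The lowest quintile thus stood apart, but *ImpL3* alone held 18.3 there and 6.51 in the highest. A large part of the gap between these quintiles was thus that of 1 gene.

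The ERK-associated genes, targets and components of another branch of kinase signalling, had medians of -0.37, -0.17, -0.01 and 0.05 over 6 genes. Of the 12 listed, 4 were above 0 and 2 below 0 in every library, without a share over all genes to set beside it. Among the 6 under the level required, *aos* had ratios of 0.28, 0.67, 1.40 and 0.76 on days 4, 5, 8 and 14. Those of *vn* were 0.21, 0.81, 1.46 and 0.56, and those of *kek1* were -0.88, -0.10, 0.37 and 0.18. *sty*, an inhibitor that ERK induces, had 0.219, 0.363, 0.837 and 1.60 in score-high cells, against 0.325, 0.370, 0.550 and 1.31 in score-low cells. Its ratio passed 0 after day 5 and was largest on day 8, at 0.61 ± 0.14.

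The share of cells with a UMI of at least 3 score genes was compared after each cell was thinned to 13000 UMIs. At days 4 and 5 the shares were 43.1% and 42.7%, with exact binomial intervals of 41.4 to 44.8 and 41.4 to 44.1. At days 8 and 14 they were 46.4% and 50.3%, with intervals of 44.6 to 48.2 and 47.3 to 53.2. Thinning left out 460, 1257, 53 and 0 cells. Without it the shares were 57.7%, 54.9%, 57.5% and 60.8%. The difference between day 14 and day 4 was 7.20 ± 3.39 percentage points after thinning, but 3.16 without it and 3.20 for at least 2 score genes. Thinning set the UMI total alone. Ribosomal proteins took 49.5% of all UMIs on day 4 and 40.8% on day 14, and the median thinned score-high cell had 2293 genes on day 4 and 2676 on day 14. Their part in the difference was not tested, and whether preparations of the same age would differ by as much was not measured. Cells with no score gene made up 10.2%, 9.65%, 10.0% and 8.56% after thinning.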

How the data were processed

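The authors made the UMI counts with Cell Ranger and scaled them in Seurat (LogNormalize). The deposited values are the natural log of 1 plus UMIs per 10000 of the cell. The sources used here give no Cell Ranger version, genome build, strand setting or cell filter. UMIs were recovered by division within each cell, where 100% of values came within 0.001 of a whole number. No cell had more than 3998 genes, and the fewest UMIs in a cell were 7747, 8447, 12859 and 14609 on days 4, 5, 8 and 14. No doublet caller was run. Alternatives left out the 5% of cells with most UMIs, changed the class size, score, filter or fold, or left out a library. The genes named were the 6 score genes, the 12 with the largest ratio each way in their least extreme library, the 5 with the largest ordered change with age each way, and members of the lists. Members, lists and alternatives were chosen with earlier results of these data known. Scripts, tested on simulated data, used python 3.11.15, numpy 2.4.6, scipy 1.17.1 and pandas 2.3.3.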

Additional observations from a re-analysis of the deposited data

Results flagged for a closer look

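The ratio of score-high over score-low cells had opposite signs on days 4 and 14, at a median of at least 0.1 each way over 5 or more genes of sufficient level, for a pair of gene lists, and it had opposite signs for 4 named genes. The ERK-associated list changed sign as well, with medians of -0.37 and 0.05 on those days. The difference between the ages, day 14 minus day 4, was not tested, since each age had 1 library. It was 0.686 for the median of the cell death list and -0.509 for that of the glycolysis list, on the log2 scale. For single genes it was 1.71 for *CG17672*, 1.34 for *hid*, -0.859 for *Got2* and -0.713 for *CG8460*, with both days beyond the counting half-width. *CG17672* overlaps a pair of noncoding RNAs on the other strand. Of 163 list members with a sufficient level, 14 had opposite signs on days 4 and 14 beyond the counting half-width, among them 6 glycolysis genes and *hid*, *rpr* and *Diap1* of the cell death list. How many of all genes did so was not counted, so whether these lists exceed that share is not known.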

How the results depend on the processing

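Of 125 summary values under an alternative, 38 moved by more than the spread over libraries or by more than 1.5 times. None changed direction, but the counts of genes among them cannot do so. The 78 called genes, named or on a list, had 1638 values, of which 373 moved by 1 SD over libraries or more. None of the 1638 changed direction. These genes were called for the same direction in every library, so leaving out a library could not change it. Values below are in the order higher genes, lower genes, then the means of the 4 medians for the replication, G2/M and JNK-associated lists, which were 150, 146, 1.90, 0.64 and -1.16. With classes of 10% they were 296, 224, 2.31 and 0.91 (JNK-associated close to the reported value). With classes of 30% the higher genes numbered 91, and the replication and G2/M medians were 1.60 and 0.46. Against all other cells the values were 47, 27, 1.10, 0.18 and -0.65. The difference of mean log values gave 26, 19, 0.57, 0.29 and -0.34, a scale that shrinks ratios of low genes. A mean of at least 1 left 30, 49 and 1.42, and no JNK-associated gene, and a mean of at least 0.05 gave 258, 262 and 2.11. At a lower fold 436 and 316 genes passed, and at 2-fold 54 and 49. Without *PCNA* in the score the values were 95 higher genes, 1.67 and 0.49. Without cells high in *Mmp1*, chosen after seeing the data, the medians were 1.77, 0.43 and -0.81. Leaving out each library gave 155 to 208 higher and 148 to 240 lower genes, and medians of 1.85 to 1.94, 0.59 to 0.70 and -1.26 to -1.11. The mean over the 6 score genes, each left out of the score, was 3.44, and 3.87 and 3.10 with classes of 10% and 30%. The day 14 minus day 4 difference in cells with score genes was 3.20 points for at least 2 genes and 3.16 without thinning, compared with 7.20. The causes of these moves were not tested beyond what each alternative changes. The glycolysis difference with age was -0.13 against all other cells. Each ratio set different cells of the same library against each other.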

Other observations

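Regional genes of the disc were also compared, most of them under the level required. Of 8 listed pouch genes 6 were above 0 in every library and none was below. Of 6 hinge genes 2 were above and 2 below, and of 7 notum genes 2 were above and 3 below. Of 5 genes of the posterior and anterior compartments 1 was above and none was below. The single genes that follow do not stand for a region. *nub*, a pouch gene, had 0.0601, 0.102, 0.493 and 0.976 UMIs per 10000 in score-high cells on days 4, 5, 8 and 14, against 0.0495, 0.0728, 0.240 and 0.455 in score-low cells. The hinge gene *zfh2* was also further apart late, at 0.308 in score-high and 0.145 in score-low cells on day 14. *drm* was lower in score-high cells in each library, with 0.127, 0.116, 0.207 and 0.383 in score-high cells and 0.381, 0.417, 0.504 and 0.600 in score-low cells. *hth*, abundant in the hinge, was between -0.15 and 0.22 on the log2 scale.

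In the DNA damage list, *grp*, the fly Chk1 kinase, was the 1 of 5 genes at least 1.5-fold higher in all 4 libraries, compared with 4.56% of all genes, and 11 of the 16 listed were under the level required. *grp* had 0.768, 0.834, 0.877 and 0.778 in score-high cells and 0.453, 0.489, 0.539 and 0.504 in score-low cells. *lok*, the fly Chk2, averaged a log2 ratio of 0.51. *Xrp1* was between -0.47 and -0.29, and *p53*, under that level, between -0.93 and -0.02. Of 8 heat shock genes none reached 1.5-fold in all 4 libraries in either direction, and the list median was -0.41, -0.46, -0.26 and -0.15.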
